A study of Homo sapiens with 6 samples.

Results

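The Notch receptors, ligands and targets described here are the 10 genes NOTCH1, NOTCH2, NOTCH3, JAG1, JAG2, DLL1, LFNG, HES1, HEY1, and HES2, and they were taken as all probes that carry one of these gene names on the arrays. These were 10 of the 36337 gene names and 15 of the 50599 probes measured. Total RNA was analyzed from 3 oral squamous cell carcinoma (OSCC) lines, HSC-3, KON, and Ca9-22, which are cultured lines without stroma. Each line was transfected with a control siRNA (siCtrl) or with siDLEU1-2, an siRNA against the long noncoding RNA DLEU1, and kept for 72 h. Each line and siRNA had 1 one-color array, 6 arrays in all, so the 3 lines serve as the replicates of the knockdown, and no line has a replicate of its own. Cells that received no siRNA were not among the arrays, and a single sequence against DLEU1 was used. Effects of knocking down DLEU1 and effects of that siRNA sequence on other transcripts cannot be told apart.

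Notch receptors are cell surface proteins that are cut when a ligand of the Jagged or Delta family on a neighboring cell binds them. The released intracellular domain moves to the nucleus, joins the DNA-binding protein RBPJ, and turns on genes of the HES and HEY families, which encode transcriptional repressors. LFNG adds sugars to the receptor and so sets how well it answers each ligand. In squamous epithelium Notch signaling promotes differentiation, and NOTCH1 is often mutated in squamous carcinomas of the head and neck.

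Levels are given as log2 of the processed signal relative to the 75th percentile of the same array, so that 1 unit is a 2-fold step. Probes differ in how brightly they bind, so a level is compared between arrays and never between probes. A probe was tested where each line had at least 1 array, siCtrl or siDLEU1-2, on which its signal stood well above background, which held for 14 of the 15 member probes and for 19956 probes in all. A probe is said to have risen or fallen where limma, with siRNA and line as terms, gave a Benjamini-Hochberg adjusted p under 0.05. The targeted gene DLEU1 fell in every line, with log2 fold changes of -4.10 for HSC-3, -3.63 for KON, and -3.44 for Ca9-22 (limma adjusted p = 0.0227). Of 10 squamous epithelium marker genes, 9 to 10 were well above background on each array, against 1 to 2 of 6 fibroblast, 1 to 3 of 4 endothelial, and 1 to 3 of 5 leukocyte markers. Of the 13 squamous marker probes tested, 1 rose, that of CDH1, and 6 fell, those of TP63, DSG3, KRT6A, SFN, and both of PKP1. The fibroblast gene COL1A1 also rose. Whether these shifts have a part in the values of the Notch genes was not tested.

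Some of the array probes carry information that matters for reading the values, so their sequences are shown with positions in the hg19 coordinates of the arrays. The NOTCH1 sequence ends in the letters of a stop triplet, in capitals, and is read from the minus strand at chr9:139390523-139390582. The NOTCH2 sequence, at chr1:120539807-120539866 on the minus strand, is also listed for a transcript of NOTCH2NLA, a human-specific partial copy of NOTCH2, so its signal cannot be given to NOTCH2 alone. The HES1 sequence is listed at chr3:193854276-193854463, a span longer than the 60 bases of the probe, and exons under it were not assigned.
NOTCH1 A_33_P3370424: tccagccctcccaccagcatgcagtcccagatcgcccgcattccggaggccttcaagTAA
NOTCH2 A_33_P3258824: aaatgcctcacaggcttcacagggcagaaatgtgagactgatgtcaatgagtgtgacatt
HES1 A_23_P6596: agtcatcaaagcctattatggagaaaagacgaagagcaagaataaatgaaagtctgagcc

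An siRNA can act on other transcripts through bases 2 to 8 of its antisense strand, and these are in capitals in the antisense strand of siDLEU1-2.
siDLEU1-2 antisense: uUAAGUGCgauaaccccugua
The complement of these bases, GCACTTA, was in 138 of the 50599 probes (0.273%) and in 0 of the 15 member probes. A probe covers 60 bases of a transcript, so the rest of each transcript was not searched.

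RBPJ binds DNA at a core of TGGGAA, and HES1 is the best known target of the pathway, so its upstream sequence is shown. In the RefSeq promoters of GRCh38.p14, which run from 250 bases before to 50 bases after a gene start, the core was searched on both strands, that is as TGGGAA or TTCCCA. HES1 had 2 matches, which begin at bases -84 and -70 from its start and are in capitals in the 90 bases at chr3:194136028-194136117 on the plus strand, bases -120 to -31.
HES1 promoter: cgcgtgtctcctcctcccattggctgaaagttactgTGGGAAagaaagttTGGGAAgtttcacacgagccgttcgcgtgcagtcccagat
Of all 35116 promoters, 24.0% held at least 1 match and 3.80% held 2 or more. Promoters were searched for 8 of the 10 member genes, and those of HEY1 and DLL1 were not searched. LFNG had 1 match at each of its 2 starts, at bases -5 and -248, and NOTCH1, NOTCH2, NOTCH3, JAG1, JAG2, and HES2 had none in this window. A match is only a match of letters.

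Across the Notch genes, 1 receptor probe rose and 1 target probe fell with siDLEU1-2. NOTCH1 rose by a mean of 1.10 ± 0.11 (SD, n = 3 lines) by one of its probes, and HEY1 fell by 1.01 ± 0.38. These were 2 of the 14 member probes tested, beside 8.5% of all tested probes (3.98% that rose and 4.52% that fell). In HSC-3 both probes entered the test through the array on which they were brighter, siDLEU1-2 for NOTCH1 and siCtrl for HEY1. With the test limited to probes well above background on all 6 arrays, neither was tested, and the member probes called were those of JAG2 and the other NOTCH1 probe. With any 1 line left out, neither passed (limma adjusted p = 0.0922 to 0.107 for NOTCH1 and 0.0983 to 0.147 for HEY1), while the means were 1.03 to 1.14 for NOTCH1 and -1.15 to -0.80 for HEY1. Fits of 2 lines called 0 probes of all genes without HSC-3 or without KON, so the calls lost there say little about these genes, and 244 without Ca9-22. The NOTCH1 probe was the only member probe changed over 2-fold in all 3 lines, beside 4.38% of all tested probes, and the count was 0 with centering on the median, the percentile of detected probes, quantile normalization, normexp, or the limit to probes well above background on all 6 arrays. Of the 14 probes, 8 moved the same way in all 3 lines, 3 of them up and 5 down, beside 53.6% of all tested probes. The median log2 fold change was -0.26 over the member probes and 0.01 over all tested probes, and the median of its size was 0.54 against 0.29. Across the 3 lines, the siCtrl and siDLEU1-2 levels of the member probes overlapped, so the directions are read within lines. The share of all tested probes that overlap was not counted, so the overlap is not given as a trait of these genes.

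**Figure D1:**
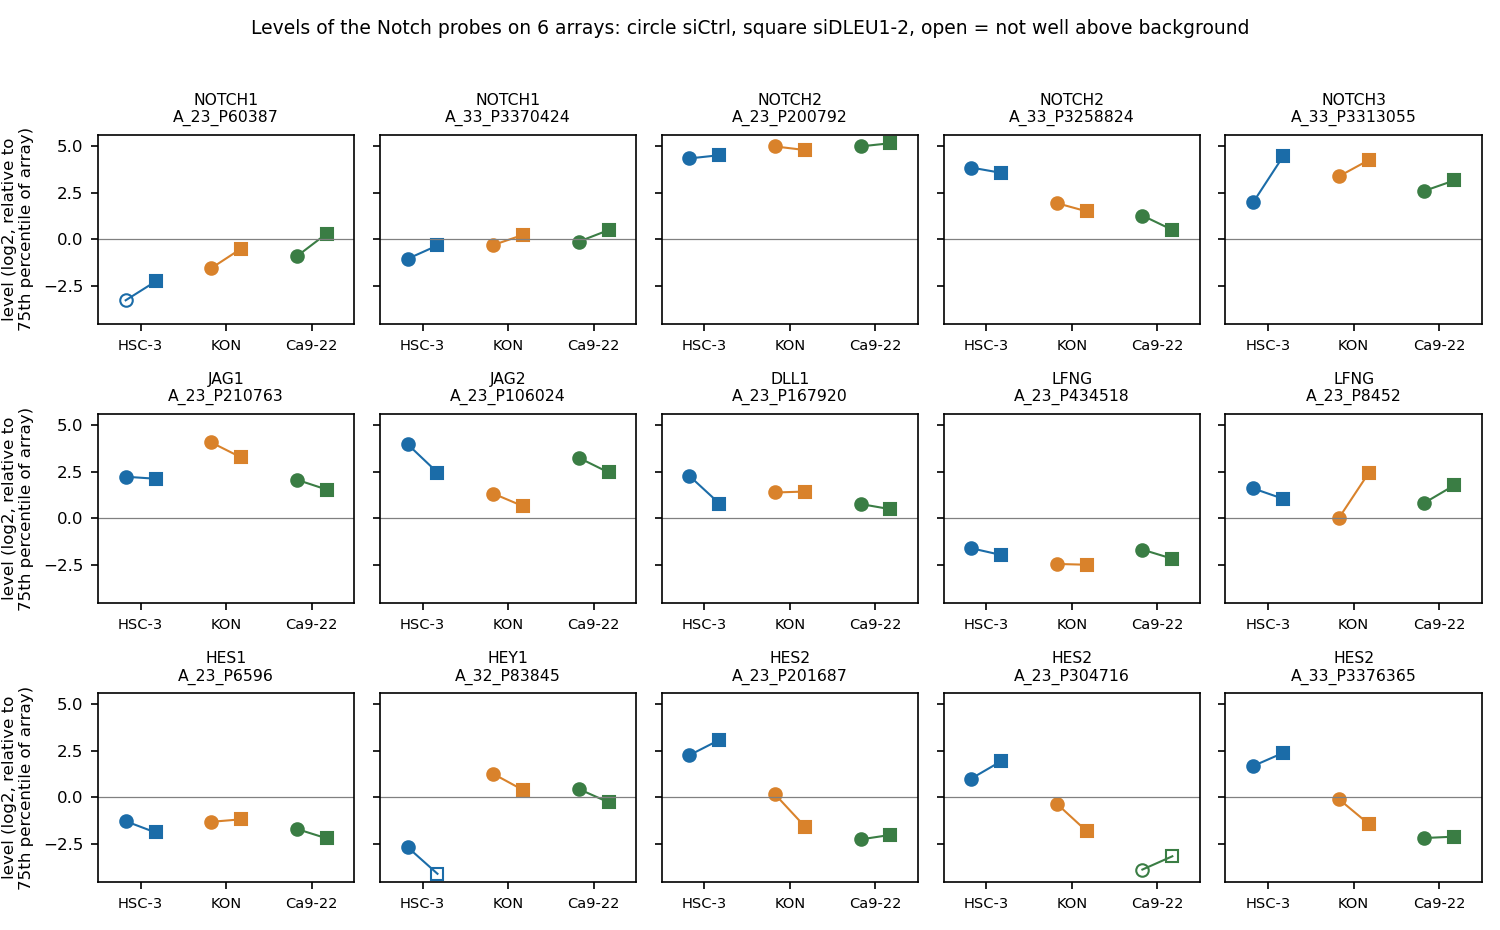
Levels of the 15 member probes on the 6 arrays, as log2 relative to the 75th percentile of the array (y axis) by cell line (x axis). Circles stand for siCtrl, squares for siDLEU1-2, open symbols for spots that were not well above background, and a line joins the 2 arrays of a cell line. Both NOTCH1 probes were higher with siDLEU1-2 in every line, and JAG1, JAG2, and HEY1 were lower in every line.

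Among the receptors, NOTCH1 and NOTCH3 were higher with siDLEU1-2 in all 3 lines, and the NOTCH2 probes differed from each other. NOTCH1 was read by 2 probes. The probe A_23_P60387, at chr9:139389764-139389823, is printed 10 times on an array. Its levels in siCtrl and siDLEU1-2 cells, in that order here and in what follows, were -3.28 and -2.27 for HSC-3, -1.56 and -0.51 for KON, and -0.92 and 0.30 for Ca9-22. The level was higher with siDLEU1-2 in each line, although the siRNA groups overlapped across lines. The log2 fold changes were 1.01, 1.05, and 1.22, that is 2.02-, 2.07-, and 2.34-fold (limma adjusted p = 0.0280). With normexp background correction the mean was 0.65 (limma adjusted p = 0.0492). In siCtrl HSC-3 cells the probe was not well above background, so the size of the 2.02-fold change in HSC-3 is uncertain. Its repeated spots on an array had an SD of 0.08 to 0.35, the highest being on that same array.

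The other NOTCH1 probe, A_33_P3370424, has the sequence shown above, and its signal was well above background on every one of the 6 arrays. Its levels were -1.06 and -0.34 for HSC-3, -0.31 and 0.23 for KON, and -0.13 and 0.49 for Ca9-22. The direction was the one seen with the first probe in each line, with log2 fold changes of 0.72, 0.55, and 0.62. The mean of 0.63 ± 0.09 did not pass the test (limma adjusted p = 0.0591), and its 95% confidence interval was 0.28 to 0.98. When the probes of a gene were averaged, NOTCH1 changed by 0.86 with an adjusted p of 0.0335.

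For NOTCH2, the probe A_23_P200792 at chr1:120454858-120454917 had levels of 4.34 and 4.52 for HSC-3, 4.99 and 4.80 for KON, and 4.99 and 5.16 for Ca9-22. These differences had no common direction, and the mean was 0.05 ± 0.21 (95% confidence interval -0.35 to 0.45, limma adjusted p = 0.861). The second probe, A_33_P3258824, whose sequence is shared with NOTCH2NLA, had levels of 3.85 and 3.57 for HSC-3, 1.94 and 1.496 for KON, and 1.27 and 0.50 for Ca9-22. It was lower with siDLEU1-2 in every line, by a mean log2 fold change of -0.50 ± 0.25, which did not pass the test (limma adjusted p = 0.125). The probes of NOTCH2 therefore disagreed, and no direction is given for the gene.

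NOTCH3 was read by the probe A_33_P3313055 at chr19:15270489-15270548. Its levels were 1.99 and 4.45 for HSC-3, 3.37 and 4.25 for KON, and 2.60 and 3.16 for Ca9-22. HSC-3 had the lowest siCtrl level and the highest siDLEU1-2 level of the 6 arrays, a 5.53-fold difference, against 1.84-fold for KON and 1.48-fold for Ca9-22. With so wide a spread the mean log2 fold change of 1.30 ± 1.02 did not pass the test (limma adjusted p = 0.119). With 1 array for each line and siRNA, a difference in response between lines could not be tested.

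The ligands were lower with siDLEU1-2 in most lines, and none of the 3 ligand probes passed the test. JAG2, the ligand Jagged 2, is also read by a probe printed 10 times, A_23_P106024 at chr14:105608674-105608733. Its levels were 3.99 and 2.46 for HSC-3, 1.33 and 0.65 for KON, and 3.26 and 2.47 for Ca9-22. The level was lower with siDLEU1-2 in each line, by 2.88-, 1.60-, and 1.73-fold, and its repeated spots had an SD of 0.06 to 0.08. The mean log2 fold change was -0.999 ± 0.46, with an interval of -1.57 to -0.43 and a limma adjusted p of 0.0610. It passed the test under 3 alternative settings, with an adjusted p of 0.0491 when arrays were centered on the median, 0.0452 with normexp background correction, and 0.0443 when only probes well above background on all 6 arrays were tested.

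JAG1 encodes Jagged 1 and was read by A_23_P210763 at chr20:10619061-10619120. Its levels were 2.24 and 2.13 for HSC-3, 4.08 and 3.27 for KON, and 2.07 and 1.55 for Ca9-22. All 3 lines were lower with siDLEU1-2, although HSC-3 differed by a log2 fold change of only -0.11. The mean was -0.48 ± 0.35 (limma adjusted p = 0.174).

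DLL1, the ligand Delta-like 1, was read by A_23_P167920 at chr6:170591642-170591701. Its levels were 2.28 and 0.79 for HSC-3, 1.39 and 1.44 for KON, and 0.77 and 0.49 for Ca9-22. The difference was 2.79-fold in HSC-3, and in KON both arrays were nearly level at a log2 fold change of 0.05. The mean was -0.57 ± 0.81 (limma adjusted p = 0.321).

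LFNG, the Lunatic Fringe glycosyltransferase, had 2 probes that are listed for different transcripts and that did not move together. The probe A_23_P8452, at chr7:2567971-2568030, had levels of 1.61 and 1.05 for HSC-3, 0.00 and 2.43 for KON, and 0.82 and 1.77 for Ca9-22. It was 5.40-fold higher with siDLEU1-2 in KON, 1.93-fold higher in Ca9-22, and 1.47-fold lower in HSC-3. The mean log2 fold change was 0.94 ± 1.495 (limma adjusted p = 0.346). The probe A_23_P434518, at chr7:2568740-2568799, had levels of -1.61 and -1.97 for HSC-3, -2.45 and -2.50 for KON, and -1.68 and -2.17 for Ca9-22. It was lower in every line, by a mean log2 fold change of -0.30 ± 0.23 (limma adjusted p = 0.281). In KON the probes thus gave 2.43 and -0.04 for the same gene.

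**Figure D2:**
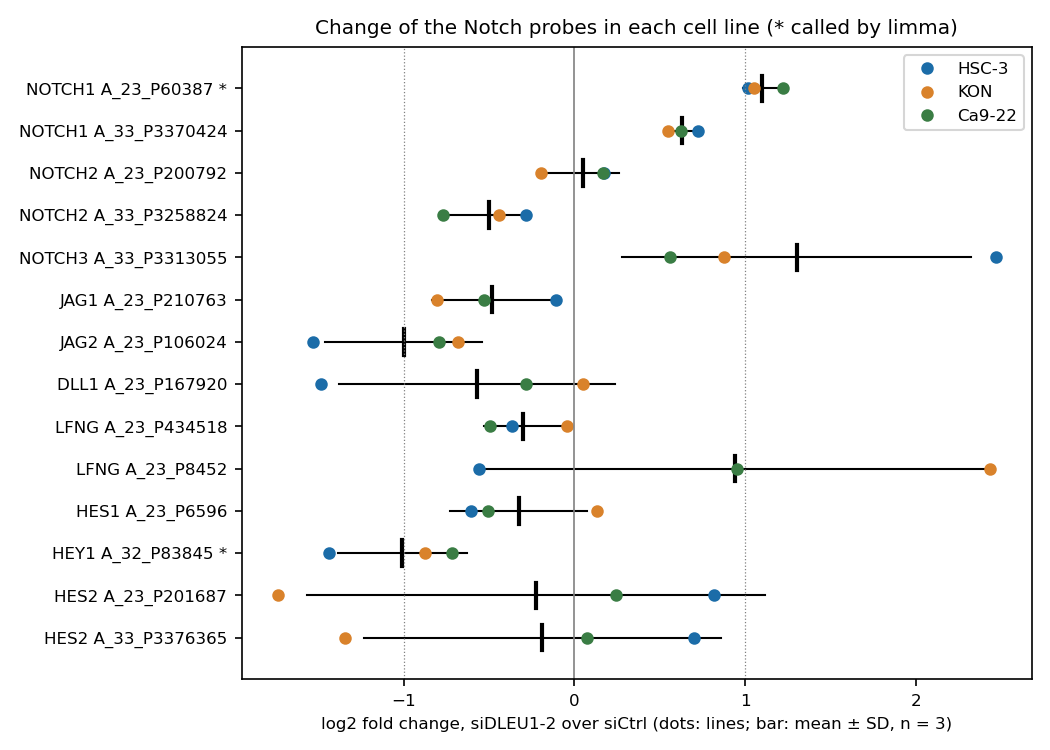
Log2 fold change of siDLEU1-2 over siCtrl (x axis) for the 14 member probes tested (y axis). Dots are the 3 cell lines, the thick tick and bar are their mean and SD, dotted lines mark a 2-fold change, and an asterisk marks a probe with a limma adjusted p under 0.05. The first NOTCH1 probe had a mean of 1.10 with an SD of 0.11, and the lines of LFNG A_23_P8452 and of HES2 lay on both sides of 0.

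Among the targets, HEY1 fell, HES1 did not pass the test, and HES2 moved in opposite directions in different lines. HEY1, a repressor that acts downstream of Notch, was read by A_32_P83845 on chromosome 8. Its levels were -2.67 and -4.11 for HSC-3, 1.27 and 0.40 for KON, and 0.45 and -0.26 for Ca9-22. The level was lower with siDLEU1-2 in each line, by log2 fold changes of -1.43, -0.87, and -0.72 (limma adjusted p = 0.0493). On the siDLEU1-2 array of HSC-3 the probe was not well above background. With it set to the floor of that array, the dimmest level marked well above background, HEY1 was 1.89-fold lower in HSC-3. The mean was then -0.84. That floor is no strict limit, since some probes above it were also not well above background. The call was close to the threshold. The adjusted p was 0.0523 when the percentile was taken over probes detected on all arrays, 0.0503 when probes were averaged by gene, and 0.0896, with a mean of -0.49, with normexp background correction.

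HES1, whose promoter is shown above, had levels of -1.28 and -1.89 for HSC-3, -1.31 and -1.18 for KON, and -1.70 and -2.20 for Ca9-22. It was lower with siDLEU1-2 in HSC-3 and Ca9-22, by log2 fold changes of -0.61 and -0.50, and differed by 0.13 in KON. The mean was -0.33 ± 0.40, with an interval of -0.85 to 0.20 (limma adjusted p = 0.345).

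HES2, another repressor of the HES family, had 3 probes. The probe A_23_P201687, at chr1:6473133-6473192, had levels of 2.27 and 3.09 for HSC-3, 0.17 and -1.57 for KON, and -2.26 and -2.02 for Ca9-22. It was 1.76-fold higher with siDLEU1-2 in HSC-3 and 3.33-fold lower in KON. The probe A_33_P3376365, at chr1:6473253-6473312, had the same order of signs, with log2 fold changes of 0.70 for HSC-3, -1.34 for KON, and 0.07 for Ca9-22. The means were -0.22 ± 1.34 and -0.19 ± 1.05, with limma adjusted p values of 0.813 and 0.804. The third, A_23_P304716 at chr1:6475737-6475796, was not well above background on either Ca9-22 array and was not tested. In HSC-3 and KON it gave 0.94 and -1.48, the signs of the other probes.

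The lines also differed from each other in the level of these genes. Of the 14 member probes tested, 8 differed between KON and HSC-3, beside 36.2% of all tested probes. Between Ca9-22 and HSC-3 the count was 6, beside 36.6%, and between Ca9-22 and KON it was 4, beside 33.2%. In all, 8 of the 14 probes differed in at least 1 of the 3 contrasts, beside 59.6% of all tested probes, so the share of these genes that differed between lines was near the background. The mean of a line is that of its siCtrl and siDLEU1-2 arrays, and the test is the same limma fit.

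HEY1 was lowest in HSC-3, with a mean level of -3.39 for HSC-3, 0.83 for KON, and 0.10 for Ca9-22. The measured differences from HSC-3 were 4.22 for KON (limma adjusted p = 0.0046) and 3.49 for Ca9-22 (limma adjusted p = 0.0050). The difference between KON and Ca9-22 did not pass the test (limma adjusted p = 0.0731). The HSC-3 mean includes the siDLEU1-2 array on which HEY1 was not well above background. With that array at its detection floor, which is no strict limit, HEY1 was 15.6-fold higher in KON and 9.38-fold higher in Ca9-22 than in HSC-3. HES2 was highest in HSC-3, with means of 2.68 for HSC-3, -0.70 for KON, and -2.14 for Ca9-22 by A_23_P201687. HSC-3 exceeded Ca9-22 by that probe with a difference of -4.82 for Ca9-22 minus HSC-3 (limma adjusted p = 0.0098), and by A_33_P3376365 with -4.19 (limma adjusted p = 0.0085). The difference between Ca9-22 and KON did not pass the test by either HES2 probe (limma adjusted p = 0.147 by A_23_P201687 and 0.0981 by A_33_P3376365).

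NOTCH1 was lowest in HSC-3 by both probes. By A_23_P60387 the means were -2.78 for HSC-3, -1.03 for KON, and -0.31 for Ca9-22, and all 3 contrasts passed the test. The HSC-3 mean includes the siCtrl array on which this probe was not well above background. At the level measured there, NOTCH1 was 3.35-fold higher in KON and 5.53-fold higher in Ca9-22 than in HSC-3. The size of these 2 differences is therefore uncertain. By A_33_P3370424 the means were -0.70, -0.04, and 0.18, and the difference between KON and Ca9-22 did not pass the test (limma adjusted p = 0.348). The NOTCH2 probe shared with NOTCH2NLA had the reverse order, 3.71 for HSC-3, 1.72 for KON, and 0.89 for Ca9-22, with all 3 contrasts called. The other NOTCH2 probe ranged from 4.43 to 5.08 with no contrast called.

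The Jagged ligands set KON apart in opposite directions. JAG1 had a mean level of 3.68 in KON against 2.18 in HSC-3 and 1.81 in Ca9-22. KON exceeded HSC-3 by 1.495 (limma adjusted p = 0.0129), and the difference between Ca9-22 and HSC-3 did not pass the test (limma adjusted p = 0.250). JAG2 had a mean level of 0.99 in KON against 3.22 in HSC-3 and 2.86 in Ca9-22. KON was lower than HSC-3, with a difference of -2.23 (limma adjusted p = 0.0086). The difference between Ca9-22 and HSC-3 again did not pass the test (limma adjusted p = 0.328). NOTCH3, DLL1, HES1, and both LFNG probes had no contrast called.

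**Figure D3:**
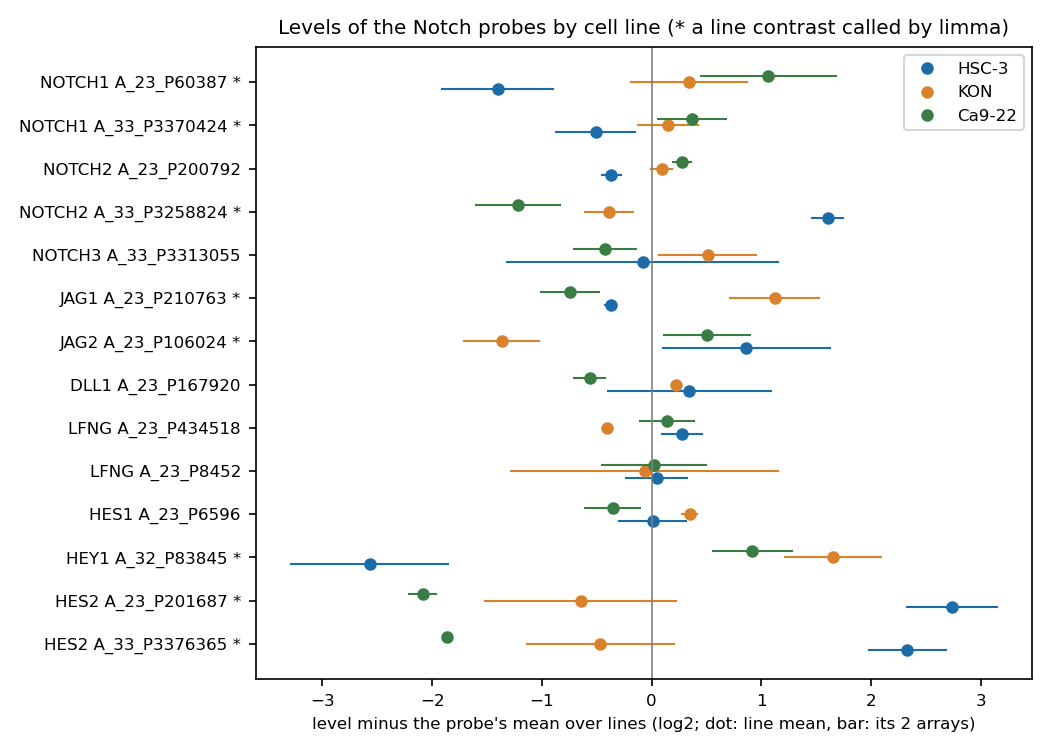
Level of the 14 member probes tested in each cell line (x axis, log2, minus the mean of the probe over the 3 lines). Dots are the means of a line, bars reach its siCtrl and siDLEU1-2 arrays, and an asterisk marks a probe with at least 1 of the 3 contrasts between lines called by limma. HSC-3 lay lowest for HEY1 and NOTCH1 and highest for HES2, and KON lay highest for JAG1 and lowest for JAG2.

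A list of 55 other genes of the pathway, from ligands to nuclear cofactors, had 77 probes, of which 52 from 40 genes were tested. Of these, 4 probes rose and 2 fell, beside 8.5% of all tested probes, and 33 of the 52 moved the same way in all lines, beside 53.6% of all tested probes. Their median log2 fold change was 0.17, against 0.01 over all tested probes. Without HSC-3 or without KON none of the 6 passed the test, as no probe of any gene did, and without Ca9-22 only 1 did, DLK2. NOTCH4, DLL3, DLL4, HES5, HES7, HEY2, and HEYL were among the genes with no probe tested.

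DLK2, which encodes a membrane protein related to the Delta ligands, fell. Its levels were 6.32 and 4.37 for HSC-3, 4.03 and 1.63 for KON, and 3.49 and 0.55 for Ca9-22. The fall was over 2-fold in all lines, with a mean log2 fold change of -2.43 ± 0.49 (limma adjusted p = 0.0247). NRARP, a Notch-induced inhibitor of the pathway, rose from 1.96 to 3.72 in HSC-3, from 2.75 to 4.56 in KON, and from 1.54 to 4.03 in Ca9-22. The rise was also over 2-fold in all lines, at 2.02 ± 0.40 (limma adjusted p = 0.0247). These values are from the probe A_33_P3337272. Another NRARP probe, A_33_P3337267, was not well above background on any array and was not tested. NRARP and HEY1, both known as genes that Notch turns on, thus moved in opposite directions in all 3 lines. HEY1 was not well above background with siDLEU1-2 in HSC-3, and its call was close to the threshold. The activity of the pathway was not tested.

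FBXW7, the ubiquitin ligase subunit that marks the cleaved receptor for breakdown, fell by 1.05 ± 0.23 (limma adjusted p = 0.0331). NUMBL, an adaptor related to the Notch inhibitor NUMB, rose by 0.90 ± 0.18 (limma adjusted p = 0.0385), and the tested probe of NUMB had 0.16. ADAM17, a surface protease that can cut Notch receptors, rose by 0.83 ± 0.19 (limma adjusted p = 0.0453), a call that was lost with centering on the median. HES6, a HES family member that counters HES1, rose by 1.02 ± 0.26 by 1 of its 4 tested probes (limma adjusted p = 0.0365). The other 3 HES6 probes had 1.05, 0.60, and 0.05 and did not pass the test, and HES6 was not called when its probes were averaged.

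By role, no probe was called among 8 of gamma-secretase, the enzyme that makes the final cut of the receptor, nor among 7 of the nuclear activators and 8 of the nuclear corepressors that act with RBPJ. None was called among 4 of ligand endocytosis, 2 of receptor glycosylation, and 3 of other reported targets. The calls were 1 of 2 ligand probes, 1 of 4 protease probes, 3 of 9 probes for turnover and inhibitors, and 1 of 5 probes for other HES and HEY genes. These small counts stand beside 8.5% of all tested probes. Settings changed some of them. APH1A of gamma-secretase, RBPJ, and MIB2 of ligand endocytosis were also called with normexp background correction, APH1A and the protease FURIN with the limit to probes well above background on all 6 arrays, and FURIN when dim values were set to the floor of their array.

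**Figure D4:**
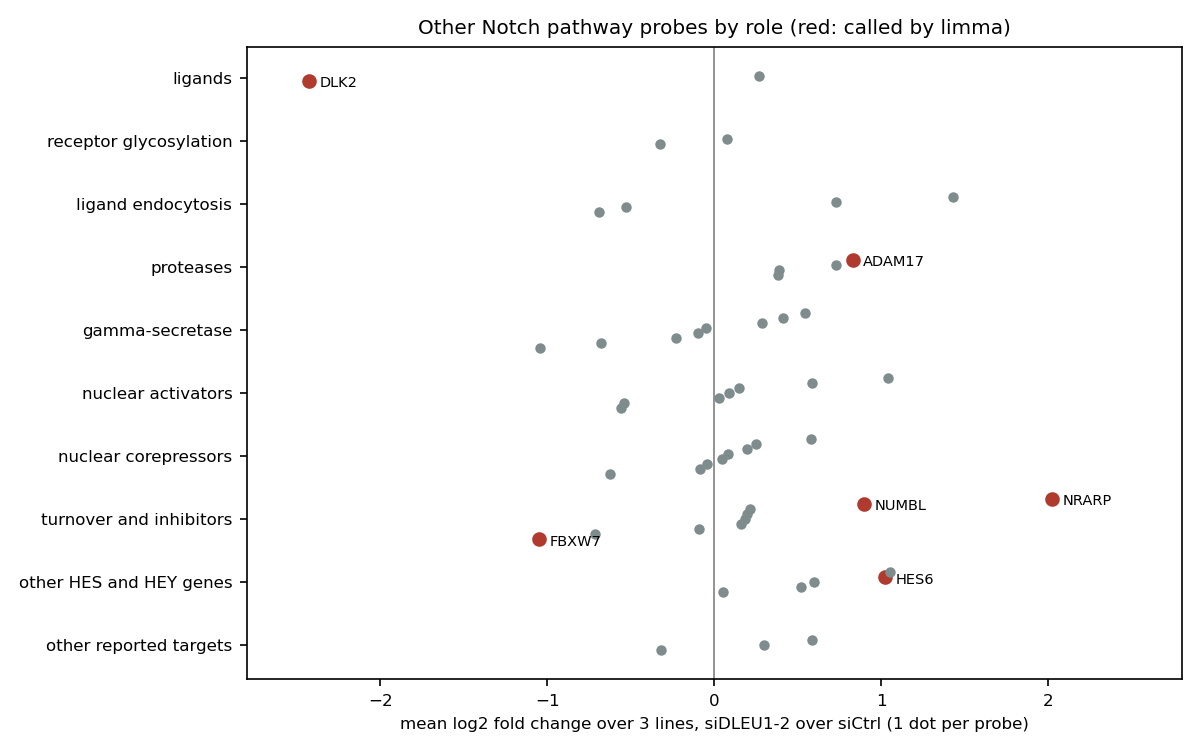
Mean log2 fold change of siDLEU1-2 over siCtrl over the 3 cell lines (x axis) for the 52 tested probes of other Notch pathway genes, grouped by role (y axis), with 1 dot a probe. Red dots with a name had a limma adjusted p under 0.05, and they ran from DLK2 at -2.43 to NRARP at 2.02.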

How the data were processed

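Total RNA of 3 OSCC lines was hybridized to 6 one-color Agilent arrays, all on 1 slide and scanned in 1 run. The authors deposited the output of Feature Extraction 10.7.3.1 (10.7 in the submitters' processing notes), whose processed signal is an intensity after the software's background subtraction, with no normalization between arrays. The deposited series table holds the same intensity, rounded, and differed by at most 0.497%. GeneSpring GX is the tool named for the study's own analysis.

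Control and outlier spots were left out, spots of a probe were averaged as log2 intensity, and the 75th percentile of each array was subtracted. A probe whose spots were in the majority marked by the software as well above background (50% or more) counted as such. Of 50599 probes, 55 lacked a usable spot on some array. No spot was saturated. The 75th percentile signal was 200.5 to 256.8, and 42.98% to 45.66% of probes were well above background. The small number of arrays limits the precision.

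limma 3.58.1 in R 4.3.3 (lmFit, eBayes) was fitted with siRNA and cell line, the pair of arrays of a line being the block, since both come from 1 line. Deviations of paired arrays correlated at 0.81 to 0.83. Whether a line's arrays came from separate cultures is not stated beyond the siRNA. On simulated arrays with 19956 probes, 200 were changed by 1.5 (log2), the same in every line. Of these, 185 were called, with 16 false calls among the other probes. Smaller changes, or changes that differ between lines, were not simulated. Probes tested between lines use the same fit. The members and gene lists were chosen with earlier results of these data known. All member probes are named, and other pathway genes where called or over 2-fold in all lines. Genes most like a called member were to be named only for member probes well above background on all arrays, and neither called probe was. Sequences are from the array files, the study's siRNA list, and RefSeq. No annotation on hg19 was used here, so exons and UTRs under the probes were not assigned.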

Additional observations from a re-analysis of the deposited data

Results flagged for a closer look

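For 3 of the 14 member probes tested, the cell lines moved by over 0.5 (log2) in opposite directions with siDLEU1-2. The lines of LFNG A_23_P8452 spanned 2.99, from -0.56 in HSC-3 to 2.43 in KON. The lines of HES2 A_23_P201687 spanned 2.56 and those of HES2 A_33_P3376365 spanned 2.04, with HSC-3 higher and KON lower in each. Each line has 1 array for each siRNA, so these differences between lines were not tested.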

How the results depend on the processing

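Leaving out 1 line gave 0 to 244 called probes in all (the 244 without Ca9-22), 0 to 0 member probes, and 0 to 1 other pathway probes, against 1697, 2, and 6, with fewer samples in each fit. Of all probes, 4547, 4676, and 4395 had an unadjusted p under 0.05 in limma without HSC-3, KON, and Ca9-22, and of the member probes 8, 5, and 5. The adjusted p of NOTCH1 A_23_P60387 was then 0.0922 to 0.107, and that of HEY1 0.0983 to 0.147. Without the replicate block, that is without pairing by line, limma called 0 probes, 0 member probes, and 0 other pathway probes (1357, 1, and 4 at an unadjusted p under 0.05), and the methods' t-test also gave 0, 0, and 0 after adjustment (1373, 0, and 6). With no filter on dim probes limma called 0, 0, and 0 (6816, 6, and 20 at an unadjusted p under 0.05), and the adjusted p was 0.151 for NOTCH1 and 0.199 for HEY1. The count of member probes called was 1 with the percentile of detected probes, 1 with gene means, and 3 with centering on the median, which added JAG2. The count of members over 2-fold in all lines was 0 with centering on the median, the percentile of detected probes, quantile normalization, normexp, the stricter filter, or a 3-fold limit, and 3 with a 1.5-fold limit. NOTCH2 A_23_P200792 changed sign with centering on the median (-0.0215), quantile normalization (-0.0324), without HSC-3 (-0.0109), and without Ca9-22 (-0.0093). Without KON, HES2 A_23_P201687 gave 0.53 and A_33_P3376365 gave 0.39. NOTCH1 A_33_P3370424 passed with the stricter filter (adjusted p = 0.0451). For other moves the cause was not tested. Of the values for single member probes under alternatives, 156 kept their direction and side of the threshold, 14 lost the call, 4 gained it, and 6 changed sign, and the count of member probes called between lines stayed at 8 to 10. Centering on the median moved the median log2 fold change of all probes by -0.07.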
